A study of Nasonia vitripennis with 15 samples.

Results

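Expression of 6 genes tied to meiotic cytokinesis and to the exocyst was followed in the testes of *Nasonia vitripennis*, a parasitoid wasp. The genes were Sau (NV13806), Exo84 (NV18385), Sec8 (NV10567), Rab11 (NV10199), pbl (NV11081) and Det (NV10358), and every transcript whose identifier held one of these NASONIABASE numbers was taken, whatever its counts. This gave 15 of the 26279 transcripts and 6 of the 13999 genes in the count tables. The study carried these numbers over from fruit fly genes with a role in male reproduction.

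Cytokinesis parts the daughter cells after each division by closing a ring of actin and myosin under the membrane of the cell equator. In fly spermatocytes the furrow also needs new membrane, which reaches it in vesicles from the Golgi and from recycling endosomes. In the fruit fly, pbl (Pebble) is needed for the ring to form, and Det (deterin, the survivin homolog) belongs to the chromosomal passenger complex at the central spindle. Sau (the Golgi protein GOLPH3) and Rab11 (a GTPase of recycling endosomes) act in the delivery of vesicles, and Exo84 and Sec8 are subunits of the exocyst, the complex that tethers vesicles to the plasma membrane. Fly males that lack the function of such genes can form spermatids with several nuclei. Males of Hymenoptera are haploid, and their meiosis does not lower the number of chromosomes.

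RNA from pooled testes of the AsymC strain was sequenced in 15 libraries, and 5 groups held 3 pools each, lettered A to C. Testes of white nymphs at 25 °C formed the start point (0 h), and testes taken 10 h later at 36 °C or at 25 °C were also labelled as white nymphs. Testes taken 24 h later at 36 °C or at 25 °C carried the label of white nymphs with red eyes. The total count per library was 1749769 to 6630161 at 0 h, 1808085 to 7154421 and 1813941 to 4362798 at 10 h (36 °C and 25 °C), and 2498166 to 5040703 and 2231479 to 3716748 at 24 h (36 °C and 25 °C). Time and nymph stage cannot be told apart between 0 h and 24 h, nor can a smaller share of a cell type and less RNA per cell in such whole testes. The study states that the germ cells are primary spermatocytes at the white nymph stage and secondary spermatocytes at the red-eyed stage.

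Levels are given as CPM (counts per 1000000 counts of the library), with library size corrected by TMM, a scaling factor that assumes that most transcripts do not differ between libraries. The 36 °C pool B at 10 h stood apart: over the transcripts kept, its mean rank correlation was 0.973 with the 24 h pools at 36 °C, against 0.926 with the other pools of its own group. The 25 °C pool B at 10 h was also slightly closer to another group (0.967 with the 24 h pools at 25 °C, against 0.962 with its own group). Pools A and C at 10 h and 36 °C were closest to the 0 h pools (0.963 and 0.957, against 0.9605 and 0.9495 with their own group, which includes pool B). The labels were kept throughout, and whether the 36 °C pool B at 10 h was exchanged with another sample or held nymphs of another stage was not tested. All 6 testis markers found (nanos, klhl10, Dnai2, heat and a pair of dynein genes) had counts in every library. They summed to 2370 to 5014 CPM at 0 h, 2460 to 9284 CPM at 10 h and 36 °C, 5641 to 8540 CPM at 10 h and 25 °C, 7255 to 8800 CPM at 24 h and 36 °C, and 10621 to 12102 CPM at 24 h and 25 °C. Of 47 cuticle genes, the markers of epidermis, 17 to 32 had a count in a library. Their sum was 115 to 210 CPM at 0 h, 150 to 826 CPM at 10 h and 36 °C, 160 to 460 CPM at 10 h and 25 °C, 239 to 1465 CPM at 24 h and 36 °C, and 619 to 12996 CPM at 24 h and 25 °C (the highest in pool A). The 3 hexamerins, markers of fat body, summed to 31.3 to 59.5 CPM at 0 h, 13.7 to 53.2 CPM at 10 h and 36 °C, 56.2 to 75.7 CPM at 10 h and 25 °C, 22.8 to 30.1 CPM at 24 h and 36 °C, and 73.2 to 89.2 CPM at 24 h and 25 °C. Apart from nanos, the testis markers are genes that the study itself picks out as higher at the red-eyed stage in these libraries, so their sum is no independent measure of testis content. The part of these other tissues in the results below was not tested.

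Of the 15 transcripts, 7 had a count in at least 1 library and 8 had none, where 33.8% of all 26279 transcripts had none. Each gene was measured almost wholly by a single transcript. Sau, Exo84 and Det had 1 transcript each, with 3511, 5756 and 2595 counts over the 15 libraries. Rab11 had 3 transcripts, of which 1 held all 505 counts. Of the 6 transcripts of pbl, 1 held 1828 of the 1831 counts, another held the other 3, and 4 had none. The values below are those of the leading transcript, so no switch between isoforms could be seen. If reads shared between transcripts were left out of the counts, the levels of Rab11 and pbl cover only part of each gene. This was not tested.

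Sec8 was close to undetected in these counts per transcript. Its 3 transcripts together had 3 counts among 56342331, namely 1 count in pool B at 0 h and 2 counts in pool A at 24 h and 36 °C. This corresponds to 0.0532 CPM (95% Poisson interval 0.011 to 0.156, which covers counting error only). The other exocyst subunit among these genes, Exo84, had 179 to 840 counts in every library. Exo84 has 1 transcript and Sec8 has 3, and how reads shared by transcripts of a gene were counted is not stated. Whether this lowered the Sec8 counts was not tested. Sec8 did not pass the filter on low counts in any comparison, and no statement on its change can be made from so few counts.

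The 5 genes tested therefore contribute 1 transcript each, all of which passed the filter in each comparison. Exo84 averaged 112 ± 6.14 CPM at 0 h, 110 ± 24.0 and 98.6 ± 8.66 CPM at 10 h (36 °C and 25 °C), and 87.3 ± 5.67 and 97.9 ± 6.05 CPM at 24 h (36 °C and 25 °C; SD, n = 3 in each group, as throughout). Sau averaged 60.3 ± 14.1 CPM at 0 h, 52.5 ± 8.73 and 68.7 ± 7.83 CPM at 10 h, and 62.5 ± 3.96 and 68.1 ± 5.68 CPM at 24 h, with the 36 °C value first at each time. Det averaged 60.6 ± 5.60 CPM at 0 h, 51.3 ± 18.6 and 45.7 ± 6.41 CPM at 10 h, and 33.2 ± 0.75 and 36.5 ± 7.27 CPM at 24 h, in the same order. The plot of levels by library shows every pool.

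**Figure D1:**
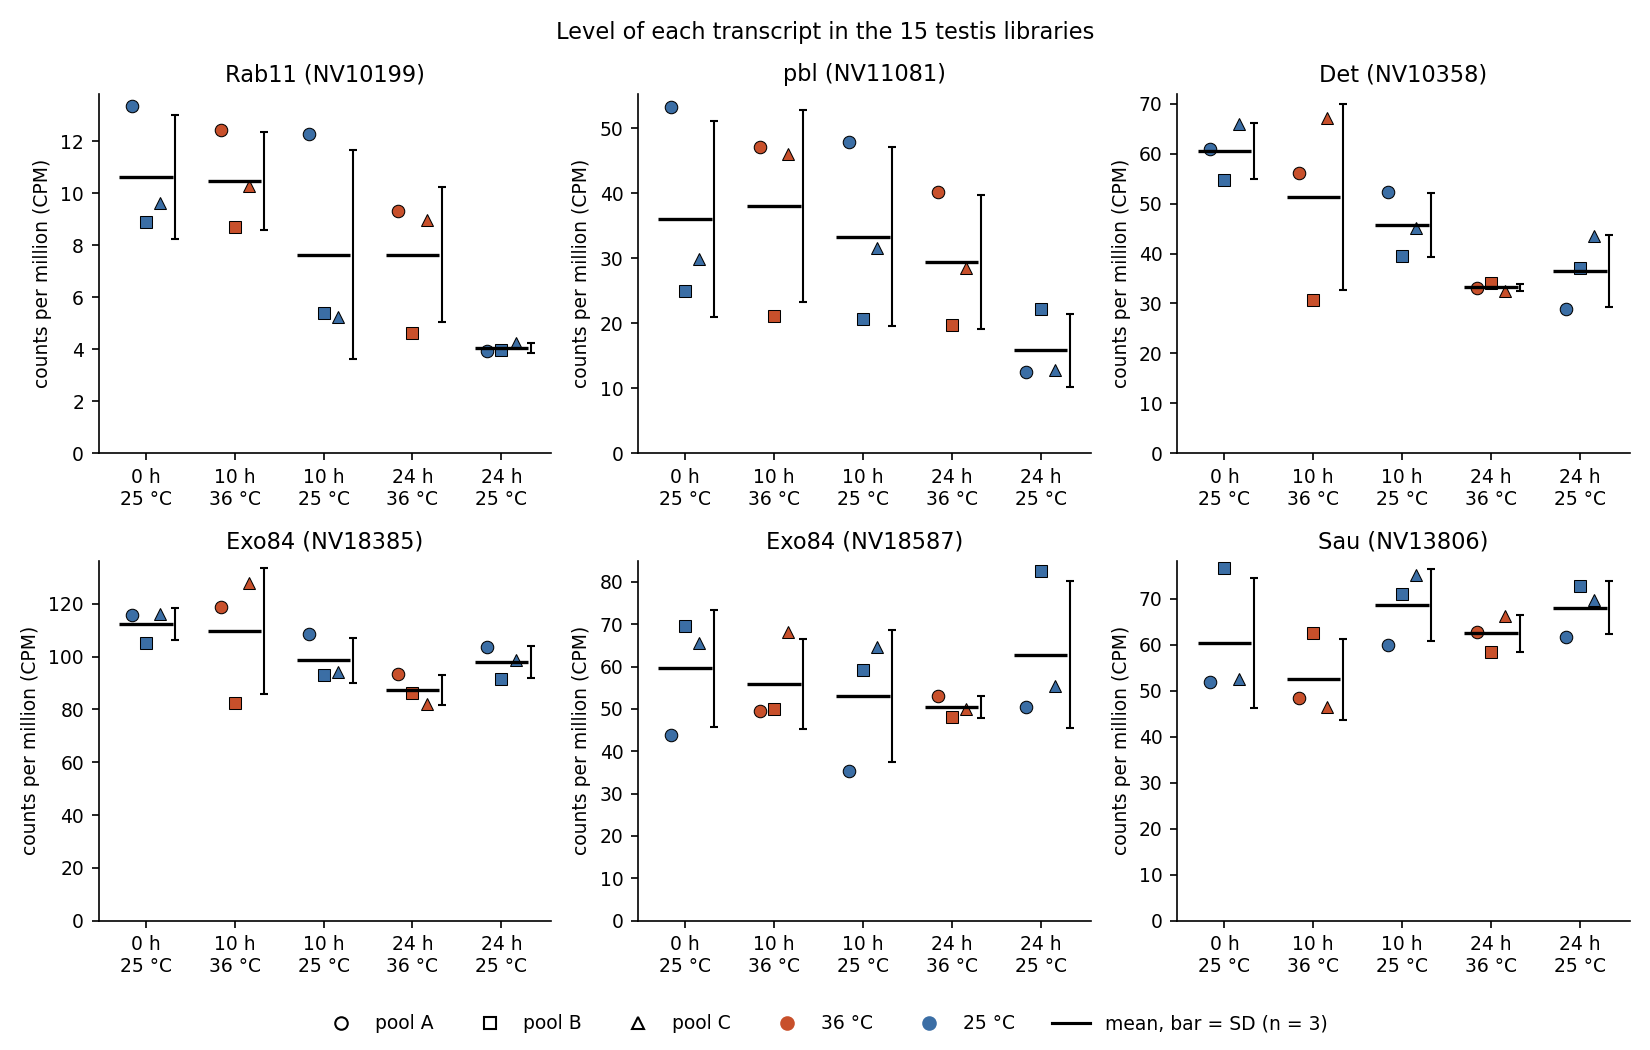
CPM (TMM scaled, linear axis from 0) of 6 transcripts in each of the 15 libraries, with groups on the horizontal axis, symbols for pools A, B and C, colour for temperature, a horizontal line for the mean and a bar for the SD (n = 3). The 3 pools at 24 h and 25 °C sit between 3.93 and 4.26 CPM for Rab11, below every other library, while Sau overlaps between all pairs of neighbouring groups.

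In the order of group means, few neighbours were separated. For Sau, the neighbours in the order all differed by less than the larger SD of the pair, with the highest mean at 10 h and 25 °C and the lowest at 10 h and 36 °C. For Exo84, with the highest mean at 0 h, the lowest mean (24 h, 36 °C) differed from the next (24 h, 25 °C) by 10.6 CPM, more than either SD, but their ranges overlapped. For Det the order was 0 h, 10 h at 36 °C, 10 h at 25 °C, 24 h at 25 °C and 24 h at 36 °C, and the step of 9.24 CPM from 10 h to 24 h at 25 °C exceeded both SDs. For Rab11 the order was 0 h, 10 h at 36 °C, 24 h at 36 °C, 10 h at 25 °C and 24 h at 25 °C. The last pair did not overlap, and of the steps only that of 2.84 CPM between the heated groups exceeded both SDs. The pbl means were 38.1 ± 14.7 CPM at 10 h and 36 °C, 36.0 ± 15.1 CPM at 0 h, 33.3 ± 13.7 CPM at 10 h and 25 °C, 29.5 ± 10.3 CPM at 24 h and 36 °C and 15.8 ± 5.56 CPM at 24 h and 25 °C, and only the last step exceeded both SDs.

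The comparison of 24 h with 0 h at 25 °C asks what differs between testes of red-eyed and of white nymphs in normal development. Rab11, pbl and Det were lower at 24 h, by 2.60-fold, 2.28-fold and 1.64-fold, while Exo84 and Sau did not pass the test. No member was higher. Of the 7809 transcripts tested, 36.9% passed at an adjusted p under 0.05, with 17.0% lower (1327) and 19.9% higher (1554). The number lower was 864 without pool C at 0 h, 864 without pool A at 24 h and 835 without pool B at 24 h. The median log2 fold change was -0.71 over the 5 members and -0.05 over all transcripts tested. The study names Rab11 among the genes that it found downregulated between these stages in these libraries. The fall of Rab11 here is thus no independent result, and it also enters the median of the members.

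Rab11, the GTPase that marks recycling endosomes, had 3.93, 3.96 and 4.26 CPM in the 24 h pools, against 13.3, 8.88 and 9.63 CPM in the 0 h pools. The 24 h pools lay close together and all below the 0 h pools. These levels rest on 11, 8 and 10 counts at 24 h, against 63, 65 and 20 counts at 0 h, so a single library at 24 h is imprecise (8 counts have a 95% Poisson interval of 3.45 to 15.8 counts). The log2 fold change of Rab11 was -1.38, with a standard error of 0.36 and an adjusted p of 0.0111 (edgeR quasi-likelihood test with Benjamini-Hochberg adjustment over all transcripts, as below). The adjusted p was 0.00705 to 0.0449 in edgeR when each pool was left out in turn.

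The ring gene pbl had 12.5, 22.3 and 12.8 CPM at 24 h, against 53.2, 25.0 and 29.8 CPM at 0 h. The groups did not overlap, but the 24 h pool B lay just under the lowest 0 h pool, and the 0 h pool A was far above the others. Its log2 fold change was -1.19 with a standard error of 0.36 (edgeR adjusted p = 0.0223). It did not pass in edgeR without pool A at 0 h (adjusted p = 0.104), or without pool A (0.075) or pool C (0.089) at 24 h.

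Det, the survivin-like subunit of the passenger complex, had 28.9, 37.1 and 43.4 CPM at 24 h, against 61.0, 54.8 and 65.9 CPM at 0 h, and these ranges did not overlap. Det fell by 0.71 in log2 units with a standard error of 0.21 (edgeR adjusted p = 0.0207). The call was lost in edgeR without pool A (adjusted p = 0.0526) or C (0.0775) at 0 h and without pool A (0.0926) or B (0.0662) at 24 h, with log2 fold changes of -0.84 to -0.53 over the 6 pools left out in turn.

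Exo84 had 104, 91.5 and 98.8 CPM at 24 h, against 116, 105 and 116 CPM at 0 h. Its ranges did not overlap either, but the difference was small (log2 fold change -0.18, standard error 0.15, edgeR adjusted p = 0.379). It passed when libraries were scaled by their total alone (-0.59, adjusted p = 0.0155 in edgeR), a scaling that moved the median of all transcripts to -0.46 and the calls to 1051 higher and 2833 lower. Rab11, pbl, Det and Exo84 were thus below 0 h in all pools, a pattern that 26.7% of the transcripts tested showed.

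Sau had 61.8, 72.7 and 69.8 CPM at 24 h, against 51.9, 76.6 and 52.5 CPM at 0 h, so that the ranges overlapped. Its log2 fold change of 0.18 (standard error 0.20, edgeR adjusted p = 0.491) changed sign with scaling by the library total (-0.22). The summed cuticle markers were higher in every 24 h pool than in every 0 h pool. Without the 24 h pool A, which had the most cuticle signal, Rab11 passed (log2 fold change -1.31, edgeR adjusted p = 0.0424), and pbl and Det did not, as given above.

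**Figure D2:**
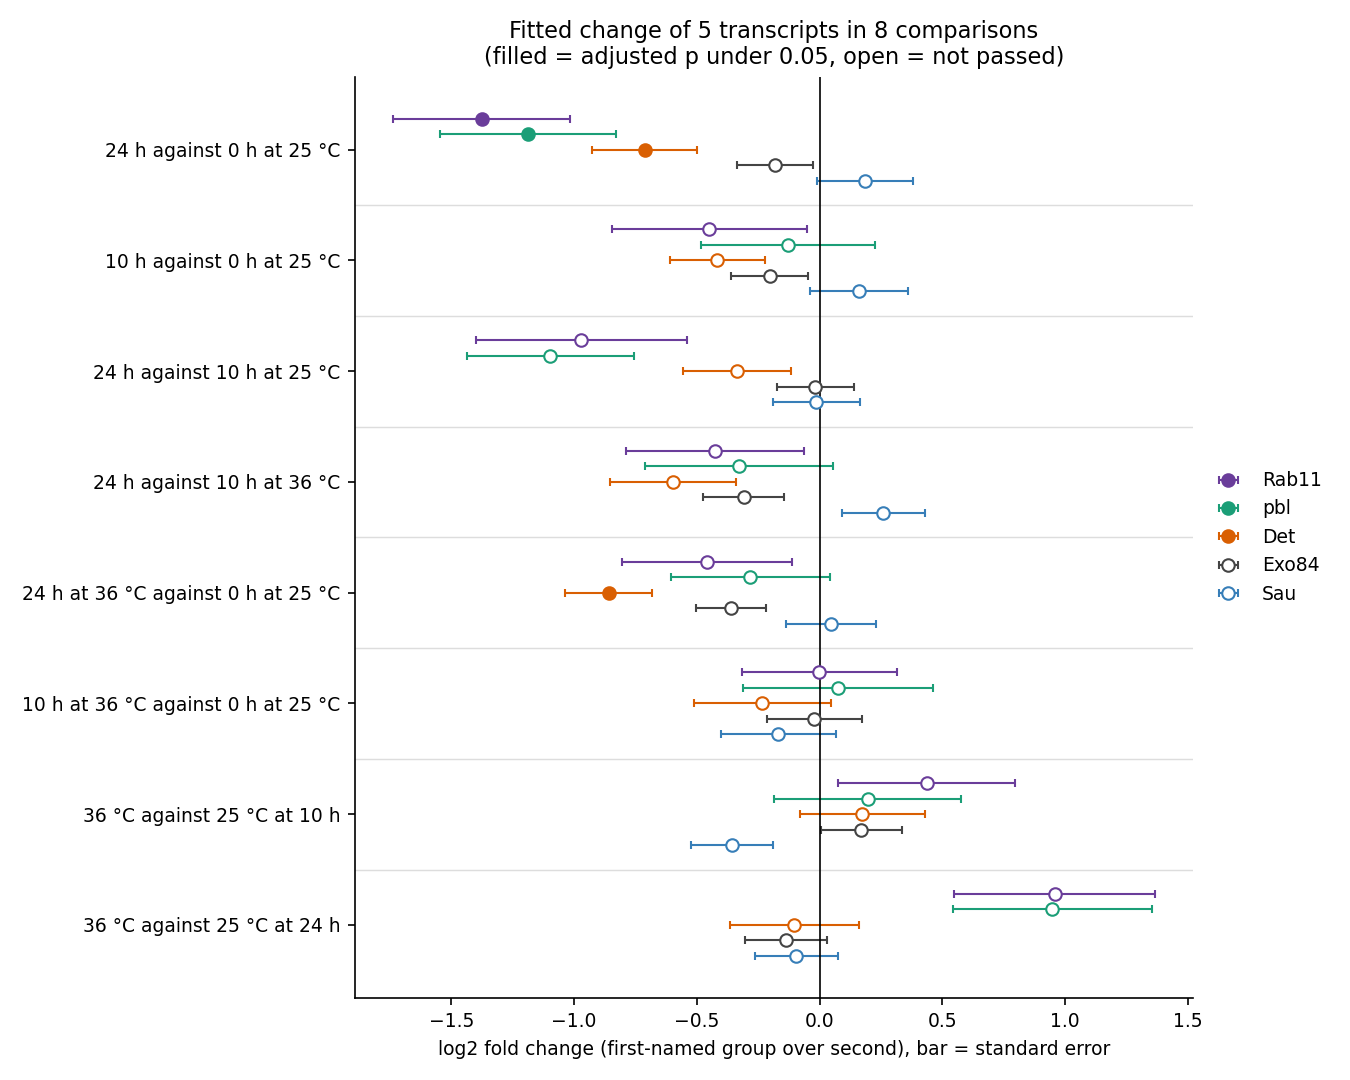
Fitted log2 fold change (horizontal axis, first-named group over the second) of 5 transcripts in 8 comparisons, with bars for the standard error and filled points for an adjusted p under 0.05 in edgeR. Rab11 (-1.38), pbl (-1.19) and Det (-0.71) are filled at 24 h against 0 h at 25 °C, and Det alone (-0.86) is filled at 24 h and 36 °C against 0 h.

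The time course was also split at 10 h, within 25 °C. None of the 5 members passed at 10 h against 0 h, where 3.75% of 8206 transcripts did (279 higher and 29 lower). That background rested on single pools: no transcript passed in edgeR without pool C at 0 h or without pool B at 10 h, while 697 higher and 354 lower passed without pool B at 0 h. Without pool A or pool C at 10 h it was 146 and 12, or 163 and 10. The pool letters were taken as pairs here, by a rule given with the processing. With the letter as a block the counts over all transcripts were 988 higher and 729 lower, still without a member. Det had 52.4, 39.6 and 45.2 CPM at 10 h, all below the 0 h pools, which 11.9% of transcripts also were (log2 fold change -0.42, standard error 0.19, edgeR adjusted p = 0.242, or 0.0603 with the block). Rab11 had 12.3, 5.39 and 5.25 CPM at 10 h. Pool A was thus within the 0 h range and pools B and C below it (log2 fold change -0.45, standard error 0.40, edgeR adjusted p = 0.557). The pbl pools had 47.9, 20.6 and 31.5 CPM at 10 h, a spread as wide as that at 0 h (log2 fold change -0.13, standard error 0.35, edgeR adjusted p = 0.867). Exo84 (-0.20) and Sau (0.16) had edgeR adjusted p-values of 0.491 and 0.691.

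No member passed at 24 h against 10 h at 25 °C, where 4.49% of 7573 transcripts did (244 higher and 96 lower). This background too moved with single pools. No transcript passed in edgeR without pool A or without pool C at 10 h, 9 higher and 1 lower passed without pool A at 24 h, and 27 and 5 without pool B at 24 h. The counts were 488 and 292 without pool B at 10 h, and 391 higher without pool C at 24 h. The larger part of the pbl difference lay in this interval, where its log2 fold change was -1.10, with a standard error of 0.34 (edgeR adjusted p = 0.0747). It passed with DESeq2 (adjusted p = 0.0406), without the filter on low counts (0.00246 in edgeR) and without the 10 h pool B (0.0322 in edgeR). The other alternatives gave no call for pbl. Their edgeR adjusted p-values ran from 0.053 by library size alone to 0.287 without the 10 h pool A, with 0.129 for the letter as a block. Rab11 was lower in every 24 h pool than in every 10 h pool, as were 14.6% of transcripts, but did not pass (-0.97, standard error 0.43, edgeR adjusted p = 0.181). Det (-0.33), Exo84 (-0.017) and Sau (-0.013) had edgeR adjusted p-values of 0.364, 0.957 and 0.969.

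The pools kept at 36 °C address how heat alters this course. At 10 h, none of the 5 members passed for 36 °C against 25 °C, and 1 (Sau) did when pool B at 36 °C was left out. Among all transcripts 3.62% passed (187 higher and 115 lower of 8351). Without any 1 of the other 5 pools at 10 h the counts were 79 to 100 higher and 30 to 54 lower, and without the 36 °C pool B they were 1037 and 1253. Sau had 48.4, 62.5 and 46.5 CPM at 36 °C, against 59.9, 71.0 and 75.1 CPM at 25 °C, with the overlap due to pool B at 36 °C. The pool letters were taken as pairs here too, and Sau was lower at 36 °C for each letter. The share of all transcripts that were lower for each letter was not computed. Its log2 fold change was -0.36 (standard error 0.17, edgeR adjusted p = 0.272), and with the letter as a block the adjusted p was 0.260 in edgeR. Without that library, which stands apart and is 1 side of the pair of pools B, it was -0.51 (standard error 0.16, edgeR adjusted p = 0.0309) and Sau passed as lower, when 14.8% of 8485 transcripts were lower and 12.2% higher.

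The same library was the lowest of its group for Det, Exo84, pbl and Rab11. Det had 56.1, 30.8 and 67.1 CPM at 36 °C, against 52.4, 39.6 and 45.2 CPM at 25 °C (log2 fold change 0.17, standard error 0.25, edgeR adjusted p = 0.753), and its log2 fold change was 0.44 without that library (edgeR adjusted p = 0.110). Exo84 had 119, 82.5 and 128 CPM at 36 °C, against 109, 93.1 and 94.0 CPM at 25 °C. Its log2 fold change was 0.17 (standard error 0.16, edgeR adjusted p = 0.616), and 0.34 without that library (edgeR adjusted p = 0.079). Rab11 had 12.4, 8.69 and 10.3 CPM at 36 °C, and pbl 47.1, 21.1 and 46.0 CPM, with edgeR adjusted p-values of 0.558 and 0.819 against 25 °C.

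At 24 h, none of the 5 members passed for 36 °C against 25 °C either, where 14.3% of 8351 transcripts did (699 higher and 493 lower). The counts were 290 and 145 without pool A at 36 °C, 413 and 173 without pool A at 25 °C, and 437 and 283 without pool B at 25 °C. The number lower was 236 without pool B and 266 without pool C at 36 °C. The largest differences were those of Rab11 and pbl, and the 25 °C pools at 24 h are those that also entered the comparison with 0 h. Rab11 had 9.32, 4.64 and 8.95 CPM at 36 °C, against 3.93, 3.96 and 4.26 CPM at 25 °C. All heated pools were above the others, as 20.3% of transcripts were, with pool B close to them (log2 fold change 0.96, standard error 0.41, edgeR adjusted p = 0.134). The pbl levels were 40.3, 19.7 and 28.5 CPM at 36 °C, against 12.5, 22.3 and 12.8 CPM at 25 °C. Here pool B was lower at 36 °C than at 25 °C while pools A and C at 36 °C exceeded the 25 °C range (log2 fold change 0.95, standard error 0.41, edgeR adjusted p = 0.138). Without the 10 h library that stands apart, which shares this fit, the edgeR adjusted p-values were 0.0898 for Rab11 and 0.0532 for pbl.

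Det was nearly even in the heated pools at 24 h, with 33.1, 34.0 and 32.6 CPM at 36 °C, against 28.9, 37.1 and 43.4 CPM at 25 °C (log2 fold change -0.10, standard error 0.26, edgeR adjusted p = 0.824). Exo84 had 93.4, 86.3 and 82.2 CPM at 36 °C, slightly under the 104, 91.5 and 98.8 CPM at 25 °C but with overlap (-0.14, standard error 0.17, edgeR adjusted p = 0.621). Sau had 62.7, 58.4 and 66.3 CPM at 36 °C, against 61.8, 72.7 and 69.8 CPM at 25 °C (-0.10, standard error 0.17, edgeR adjusted p = 0.743). These 3 differences turned positive when libraries were scaled by their total alone (0.056, 0.043 and 0.073), and no call was made under either scaling.

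Whether the response to heat at 24 h differed from that at 10 h was tested in the same fit, as the first log2 fold change minus the second. It was 0.75 for pbl (standard error 0.56, edgeR adjusted p = 0.785) and 0.52 for Rab11 (standard error 0.54, edgeR adjusted p = 0.869). It was -0.31 for Exo84, -0.28 for Det and 0.26 for Sau, with edgeR adjusted p-values of 0.799 to 0.912. No transcript of any gene passed this test in edgeR with all 12 libraries and the filter on low counts, although 654 of 8351 had an unadjusted p under 0.05. Without that filter 1 was lower, without the 36 °C pool B at 10 h 84 were higher and 40 lower, none of them a member, and DESeq2 called 8 higher and 1 lower. A difference between the heat effects was therefore not detectable for these genes, whose standard errors were 0.23 to 0.56.

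Within 36 °C, the pools at 24 h were compared with those at 10 h, and no member passed (0.0718% of all transcripts did, 5 higher and 1 lower, and 0 to 2 higher and 0 lower without any 1 of the 11 other pools of the fit). This depended on pool B at 10 h. With it, Det was at -0.60 (standard error 0.26, edgeR adjusted p = 0.220) and Exo84 at -0.31 (standard error 0.16, edgeR adjusted p = 0.299). Without it, Det passed at -0.86 (standard error 0.20, edgeR adjusted p = 0.00356) and Exo84 at -0.48 (standard error 0.14, edgeR adjusted p = 0.0136), when 16.9% of 8485 transcripts were lower and 17.9% higher. Sau was at 0.26 with that library and 0.41 without it, and did not pass either way (edgeR adjusted p = 0.376 and 0.0615).

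The heated pools were also set against the common start, a pair of comparisons added after the others had been seen. At 24 h and 36 °C against 0 h, Det was 1.81-fold lower, a log2 fold change of -0.86 with a standard error of 0.18 (edgeR adjusted p = 0.00233). The call held with each of the 6 pools left out in turn (edgeR adjusted p = 0.00061 to 0.015). Of the 8118 transcripts tested, 43.7% passed, with 21.9% lower and 21.7% higher. Exo84 was below every 0 h pool, as 28.5% of transcripts were, and lay near the threshold (log2 fold change -0.36, standard error 0.14, edgeR adjusted p = 0.0589). It passed in edgeR without the 0 h pool B (-0.43, adjusted p = 0.0159), by library size alone (0.00942) and without the filter on low counts (0.0459). It did not pass in edgeR with the letter as a block (0.0989) or without any other single pool (adjusted p up to 0.212). Rab11 (-0.46, standard error 0.35), pbl (-0.28, standard error 0.32) and Sau (0.05, standard error 0.18) overlapped with the 0 h pools and did not pass (edgeR adjusted p = 0.304, 0.509 and 0.860). Thus Det was lower than at 0 h in the 24 h pools of both temperatures, which share the 0 h pools as their baseline, and Rab11 and pbl were called lower at 25 °C. The direct test of 36 °C against 25 °C at 24 h, given above, did not separate the temperatures for Rab11 and pbl. At 10 h and 36 °C against 0 h, no member passed, where 0.832% of 8894 transcripts did (58 higher and 16 lower), and the log2 fold changes were -0.23 to 0.08. The counts over all transcripts were 2 and 0, 7 and 1, and 6 and 0 without pools A, B and C at 0 h, and 12 and 0, 124 and 40, and 35 and 6 without pools A, B and C at 10 h.

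Of the 7 comparisons in which no member passed in edgeR, 3 had members with an unadjusted p under 0.05. These were 2 (Rab11 and pbl) at 24 h against 10 h at 25 °C, where 1884 of all 7573 transcripts had such a p. For heat at 24 h they were 2 (Rab11 and pbl), with 2443 of all 8351 transcripts. At 24 h against 10 h at 36 °C there was 1 (Det), with 1675 of all 8351 transcripts. DESeq2 called 1 member in these 7 comparisons, pbl at 24 h against 10 h at 25 °C.

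Counts were next compared within each library, where scaling plays no part. Exo84 served as the common denominator, a choice made after its values were seen, since it had the most counts. Rab11 had 3.79, 4.32 and 4.31 counts per 100 counts of Exo84 at 24 h and 25 °C, against 11.5, 8.43 and 8.30 at 0 h. The other groups ranged from 5.38 to 11.3, so the 24 h pools at 25 °C were the lowest of the 15 libraries by this ratio. Det had 27.9, 40.5 and 44.0 at 24 h and 25 °C and 35.5, 39.5 and 39.6 at 24 h and 36 °C, against 52.7, 52.0 and 56.8 at 0 h, with no overlap between 24 h and 0 h at either temperature. For pbl the values were 12.1, 24.3 and 12.9 at 24 h and 25 °C, against 45.9, 23.7 and 25.7 at 0 h, and pool B at 24 h then lay inside the 0 h range. Sau had 59.7, 79.5 and 70.7 at 24 h and 25 °C, against 44.8, 72.8 and 45.2 at 0 h, with overlap. Rab11 had 31.4, 17.8 and 33.3 counts per 100 counts of pbl at 24 h and 25 °C, against 25.1, 35.5 and 32.3 at 0 h, which overlapped. These ratios reuse the counts tested above and are no separate test. The share of all transcripts whose ratio to Exo84 does not overlap in this way was not computed.

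**Figure D3:**
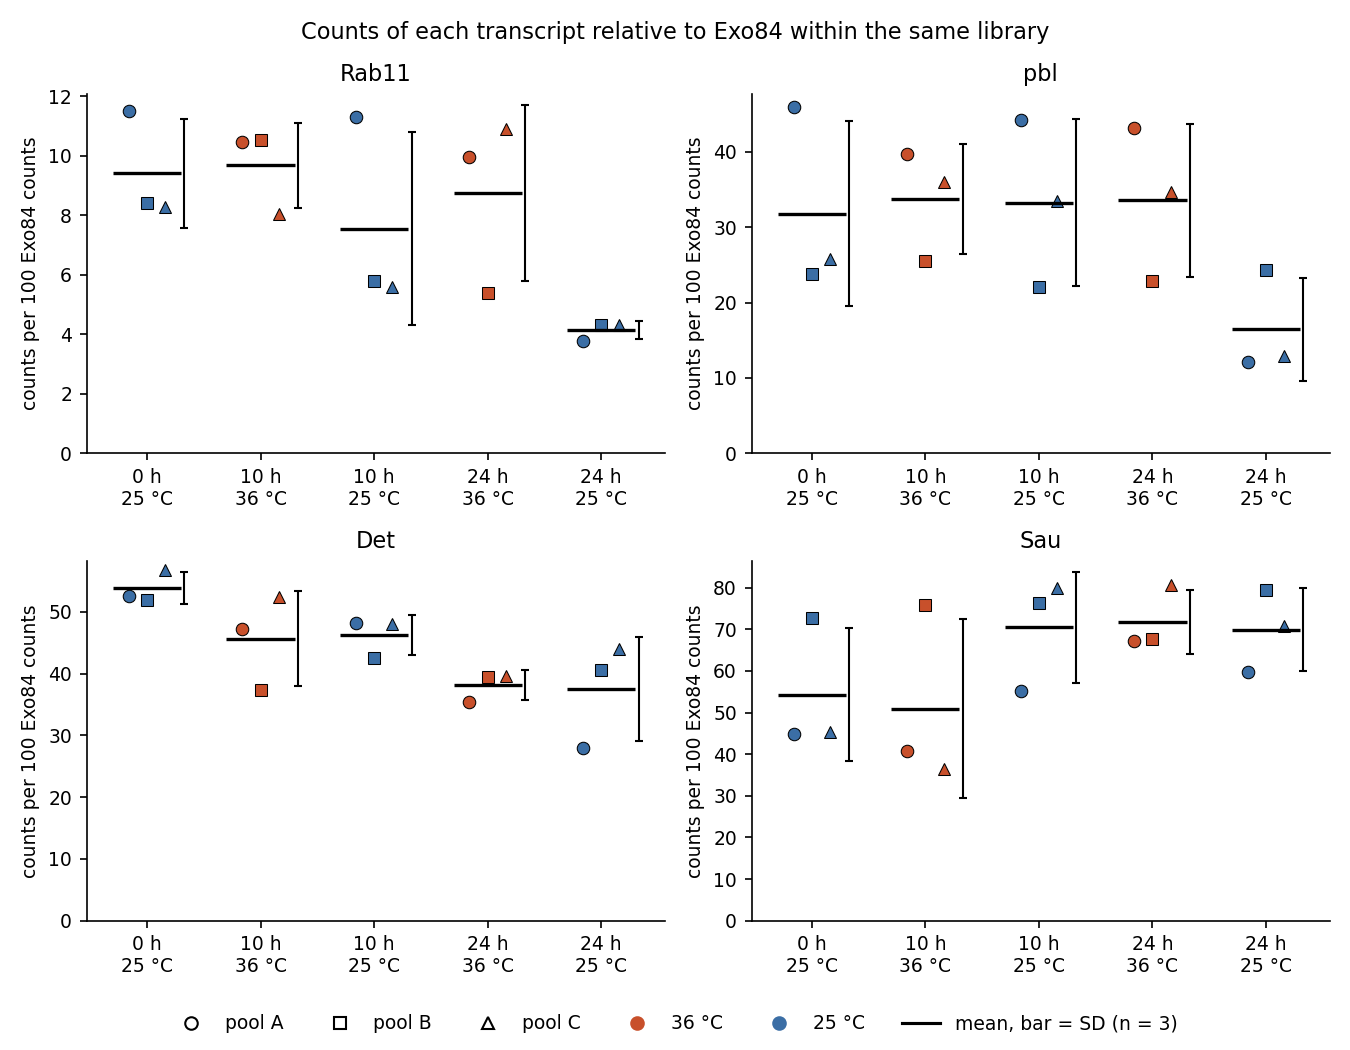
Counts of Rab11, pbl, Det and Sau per 100 counts of Exo84 in the same library (linear axes from 0), by group, with symbols for pools, lines for means and bars for the SD (n = 3). Rab11 at 24 h and 25 °C lies between 3.79 and 4.32, below the other 12 libraries, and Det is lower at 24 h than at 0 h in every pool.

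Some members followed each other across libraries. As a description, log2(CPM + 1) of Rab11 and pbl had a Pearson r of 0.85 over the 15 libraries and 0.75 after each group's mean was taken off. For Det and Exo84 the values were 0.85 and 0.80. Sau ran the other way from Exo84 (-0.66, and -0.77 within groups). Pool A had the highest level of both Rab11 and pbl in each group except at 24 h and 25 °C, where it had the lowest. The libraries share their groups, their scaling and the pool that stands apart, so these values are no test.

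**Figure D4:**
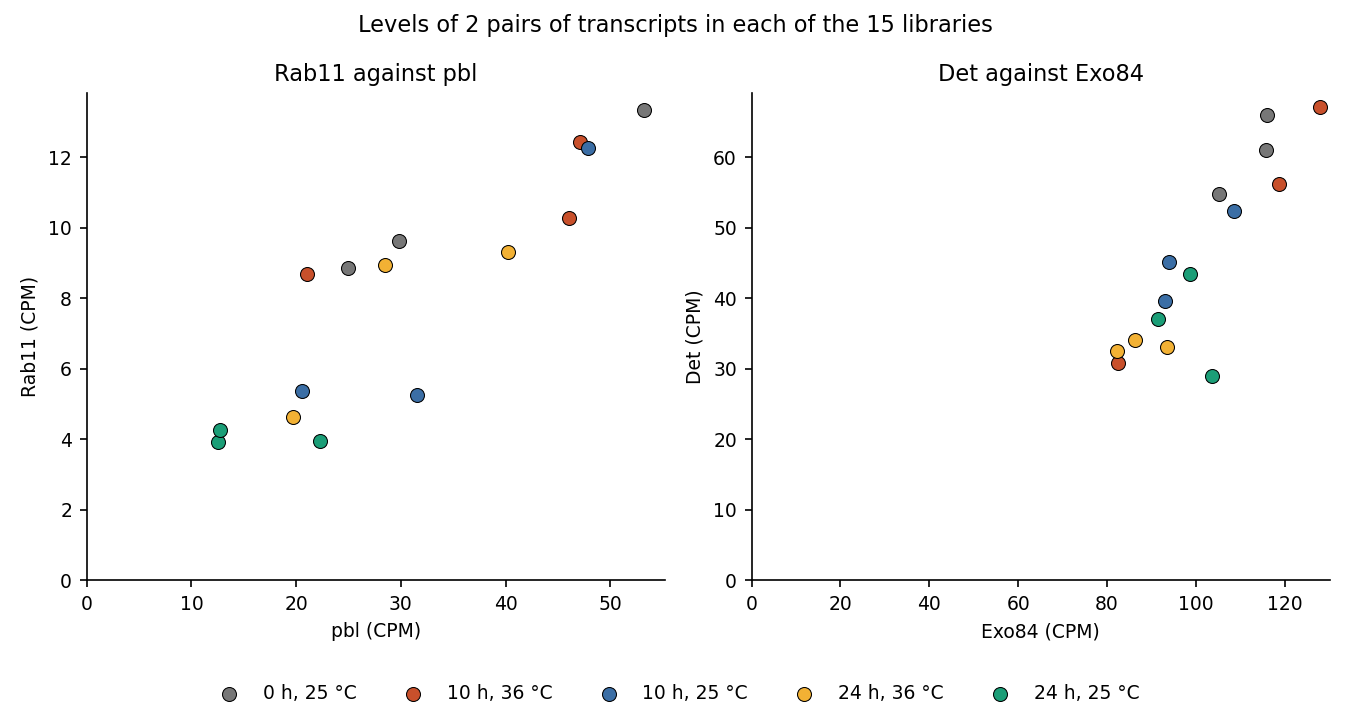
Level of Rab11 against pbl and of Det against Exo84 (CPM, linear axes from 0), with 1 point per library and colour for the group. The pools at 24 h and 25 °C have the lowest levels of Rab11, and pools A and C among them the lowest of pbl. Pool B there (22.3 CPM of pbl) lies above pool B at 24 h and 36 °C (19.7 CPM). The 0 h pools lie toward the upper end for Det and Exo84.

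For the 4 members with a mean of at least 10 CPM, the transcripts of other genes most like them over the 15 libraries were sought among 8807 transcripts, as a description. The closest to Det was NV15664 (Pearson r 0.98), followed by NV16708 and LOC100679426 (0.97 each). The closest to pbl was NV10360 (0.95), then a transcript with neither number nor symbol (0.91) and NV11745 (0.91). The closest to Exo84 were NV13505 (0.95), NV13790 (0.93) and LOC100680235 (0.93), and the closest to Sau were NV12090 (0.95), NV13887 (0.95) and NV17074 (0.94). Rab11, with a mean of 8.08 CPM, was below the limit.

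The study gives a second number for each of Sau and Exo84. No transcript in the counts carried the second Sau number (NV19204). The second Exo84 number, NV18587, had 1 transcript with 3093 counts and did not share the course of the other one. It had 50.3, 82.6 and 55.3 CPM at 24 h and 25 °C, against 43.9, 69.5 and 65.5 CPM at 0 h (log2 fold change 0.09, standard error 0.24, edgeR adjusted p = 0.789). It did not pass in any comparison, and its r with the Exo84 number followed here was 0.02 over the 15 libraries.

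Other genes that the study lists under meiosis were followed in the same fits. Of its 19 further numbers, 16 had a transcript (53 in all), and 13 transcripts of 11 genes were tested at 24 h against 0 h at 25 °C. There 2 were higher and 2 were lower, 9 did not pass, where 36.9% of all transcripts passed, and their median log2 fold change was 0.08. Cyclin B, the activator of the mitotic kinase, had 761 ± 98.1 CPM at 24 h and 391 ± 132 CPM at 0 h (log2 fold change 0.98, standard error 0.24, edgeR adjusted p = 0.00849). Its kinase cdk1 (1 of 2 transcripts) was also higher (log2 fold change 0.89, standard error 0.29, edgeR adjusted p = 0.0314). Pelo, a protein of ribosome rescue, fell by 0.63 in log2 units (standard error 0.17, edgeR adjusted p = 0.0152), and 1 of 3 transcripts of mei-P26, a translational regulator of the fly germ line, fell by 3.06 (standard error 0.58, edgeR adjusted p = 0.00195). That mei-P26 transcript had 2.58 ± 0.69 CPM at 24 h and 21.8 ± 12.8 CPM at 0 h. The study, which used DESeq2, reports no modulation of cyclin B during meiosis, unlike the call here. It lists pelo among its downregulated genes.

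In the other comparisons, the same 1 of 3 transcripts of mei-P26 was lower at 24 h than at 10 h at 25 °C (log2 fold change -2.10, edgeR adjusted p = 0.0391). A transcript of lam, the lamin gene (4 transcripts), was lower at 36 °C than at 25 °C, at 10 h (-1.24, edgeR adjusted p = 0.042) and at 24 h (-1.45, edgeR adjusted p = 0.0123). The lam levels were low, at 4.21 against 10.1 CPM at 10 h and 3.15 against 8.83 CPM at 24 h. No other transcript of this list passed for heat, and none passed at 10 h against 0 h. At 24 h and 36 °C against 0 h, 3 of 14 were higher and 4 were lower, where 43.7% of all transcripts passed. The 4 of lowest p were pelo (-1.05), cyclin-A (0.99), plk-4 (0.64) and lam (-1.42).

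From this list Klp3A and dia were also described for their role in fly cytokinesis, a choice made after the values were seen. Incenp, a partner of Det in the passenger complex, is on the list too. It was not among the genes of this list that passed in any comparison, and its values are not given here. Klp3A, a kinesin of the central spindle, had 187, 224 and 248 CPM at 24 h and 25 °C, against 216, 249 and 202 CPM at 0 h (log2 fold change -0.0029, edgeR adjusted p = 0.992). It was at 379, 287 and 264 CPM at 24 h and 36 °C, above each of those 24 h pools, without passing the test of heat (0.53, standard error 0.18, edgeR adjusted p = 0.0653). Against 0 h the heated pools passed as higher (0.48, standard error 0.17, edgeR adjusted p = 0.0332). The formin dia, which nucleates actin of the ring, had 22 counts in all over its 5 transcripts, at most 5 in a library, and was not tested.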

How the data were processed

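Total RNA of testis pools (60 testes by the labels, more by the study's methods) was sequenced on an Illumina HiSeq after a TruSeq preparation, stranded by the labels only. TopHat2 (version 2.1.0 in the submitters' processing notes) placed the reads on assembly Nvit_2.1, and the authors deposited counts per RefSeq transcript (htseq-count by the methods, featureCounts 1.6.3 by the notes). The 6 deposited tables also hold the authors' DESeq2 fold changes and p-values and 54 normalized columns, which were not used. Whether pools came from separate rearings is not stated, so p-values measure the spread between pools.

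Robust quasi-likelihood models were fitted to the counts in edgeR 4.0.16 under R 4.3.3, with TMM factors (0.754 to 1.19) after filterByExpr, and a transcript passed at a Benjamini-Hochberg adjusted p under 0.05 over all transcripts tested. Comparisons of 2 groups used their 6 libraries, and those of heat and within 36 °C used 12 libraries in 1 fit. Standard errors are the log2 fold change over the square root of F. The fits were run on simulated counts with the same spread for every transcript and no pool that stands apart. That check does not cover such a pool. DESeq2 1.42.0, other scalings, no filter, sums per gene, all 15 libraries in 1 fit, a block and left-out pools were the alternatives. Tables and figures used Python 3.11.15, pandas 2.3.3 and matplotlib 3.10.9.

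The pool letters were checked as pairs by the correlation of deviations from group means. They were taken as pairs where every same-letter r exceeded 0.1. This held for 10 h and 0 h at 25 °C (r 0.138 to 0.459) and for the temperatures at 10 h (0.219 to 0.526). Unlike letters could be as close, as A at 25 °C with C at 36 °C at 10 h (0.244) and B at 0 h with C at 10 h and 25 °C (0.122). The same-letter r of 0 h with 10 h at 36 °C were 0.083 to 0.377, and these were not taken as pairs. The check thus does not settle whether the letters are pairs. No pair of libraries of a group agreed within counting noise. The members and lists were chosen with earlier results of these data known, and 2 comparisons were added after the values were seen. Named genes were the members, the second numbers of Sau and Exo84, the 3 most alike transcripts of each member with at least 10 CPM, and in each comparison up to 4 of lowest p that passed among the study's other meiosis genes, beside which Klp3A and dia were named for their role. A list of further cytokinesis and exocyst genes by symbol, like those for gut and symbol-named testis markers, matched 0 transcripts. The 3 muscle markers summed to 274 to 482 CPM and the 3 nerve markers to 3.21 to 10.7 CPM in a library. Symbols came from a RefSeq table of another assembly (Nvit_psr_1.1), so coordinates are not given, and 11605 gene IDs matched. No sequences were used.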

Additional observations from a re-analysis of the deposited data

How the results depend on the processing

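Fold changes of the 5 members in 9 comparisons were recomputed under 705 combinations of comparison and alternative. Of these 652 kept their direction and their side of the threshold, 7 lost a call, 10 gained one and 36 changed sign, none of them in a called result. The number of members passing at 24 h against 0 h at 25 °C was 3, and 1 to 3 without single pools. It was 0 to 1 at 24 h against 10 h at 25 °C (1 with DESeq2, 1 without the filter on low counts), 0 to 1 for heat at 10 h, and 0 to 2 at 24 h against 10 h at 36 °C, the last pair through pool B at 10 h and 36 °C. It was 1 to 2 at 24 h and 36 °C against 0 h, and 2 when scaled by library size alone or without the filter. Without that pool B the calls over all transcripts were 1037 higher and 1253 lower for 36 °C against 25 °C at 10 h, 1110 and 1135 for the same at 24 h, 84 and 40 for their difference and 1521 and 1438 at 24 h against 10 h at 36 °C. The causes were not tested.

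The replicate block (pool letter) changed no call of a member. It gave 988 higher and 729 lower over all transcripts at 10 h against 0 h. Where letters were not taken as pairs, it gave 492 and 238 at 24 h against 10 h at 25 °C and 199 and 127 at 10 h and 36 °C against 0 h. It gave 3 and 0 at 24 h against 10 h at 36 °C, where the main count was 5 and 1. DESeq2 called 525 higher and 124 lower at 10 h against 0 h, 486 and 210 at 24 h against 10 h at 25 °C, 85 and 119 at 24 h against 10 h at 36 °C, 154 and 64 at 10 h and 36 °C against 0 h, and 199 lower for 36 °C at 10 h. No filter gave 612 and 148, 608 and 385, 24 and 63, and 125 and 37 in the first 4 of these, and a single fit of 15 libraries gave 0 and 0, 0 and 0, 10 and 5, and 273 and 239. Sums per gene gave 1 and 0 at 24 h against 10 h at 36 °C. Scaling by library size alone gave 209 higher and 119 lower at 10 h against 0 h, 91 and 214 at 24 h against 10 h at 25 °C, 871 and 241 for 36 °C against 25 °C at 24 h, and 1439 and 2448 at 24 h and 36 °C against 0 h.

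Sign changes were confined to uncalled values. By library size alone they were Sau at 24 h against 0 h at 25 °C (-0.22) and at 24 h and 36 °C against 0 h (-0.14, and -0.085 without the filter), and, for heat at 24 h, Exo84 (0.043), Sau (0.073) and Det (0.056). Rab11 at 10 h and 36 °C against 0 h, at -0.0013, was 0.0054 with DESeq2 size factors, 0.0035 with the replicate block and 0.0027 summed per gene. Without single pools, log2 fold changes ran as follows. At 10 h against 0 h pbl ran from -0.48 to 0.30. At 24 h against 10 h at 25 °C Exo84 ran from -0.055 to 0.062 and Sau from -0.10 to 0.081. For 36 °C against 25 °C at 10 h pbl ran from -0.068 to 0.57 and Det from -0.063 to 0.44, and Det at 24 h ran from -0.22 to 0.036. The difference between heat effects of Rab11 ran from -0.040 to 0.77. At 10 h and 36 °C against 0 h Exo84 ran from -0.14 to 0.12, pbl from -0.15 to 0.49, Sau from -0.37 to 0.024, Rab11 from -0.15 to 0.22 and Det from -0.46 to 0.0062. At 24 h and 36 °C against 0 h pbl ran from -0.55 to 0.15 and Sau from -0.053 to 0.24. By library size alone, mean levels moved by more than 1 SD for Rab11 (3.49 CPM), Exo84 (83.9 CPM) and Sau (58.9 CPM) at 24 h and 25 °C and for Det (68.4 CPM) and Exo84 (127 CPM) at 0 h. Low counts limit Sec8 most, with 3 counts in all, and among the genes tested Rab11, with 8 to 88 counts a library.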
